A study of Mus musculus with 2 samples.

Results

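p53 peaks were examined in 7 windows of the mouse genome that hold clusters of imprinted genes, in embryonic stem cells treated with Nutlin. A peak was counted as a member when its midpoint lay inside a window. The windows hold H19, Igf2, Kcnq1 and Cdkn1c (chromosome 7, 149.5 to 150.8 Mb), Dlk1 to Dio3 (chromosome 12, 110.6 to 111.6 Mb), Peg10 and Sgce (chromosome 6, 3.6 to 5.4 Mb), Peg3 (chromosome 7, 6.6 to 6.85 Mb), Snrpn, Ube3a and Ndn (chromosome 7, 66.4 to 69.7 Mb), Gnas (chromosome 2, 174.05 to 174.19 Mb) and Igf2r and Airn (chromosome 17, 12.58 to 13 Mb), all in build mm9. They span 8.21 Mb and contain 269 of the 92924 peaks of the list (0.289%). No score or width was used to choose them.

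The list was made from a p53 ChIP library (antibody P53(M-19)) against an input library, 1 of each, both from cells of a C57BL/6X129Sv mix kept with leukemia inhibitory factor and exposed to Nutlin for 8 hours. The Nutlin dose is given as 20 µM in the series design and as 20 mM in the sample protocols. Nutlin blocks the contact of p53 with its ubiquitin ligase Mdm2. There is no untreated library and no second culture, so a response to Nutlin cannot be read from these values, none has an error between cultures, and no p-value is given. Intervals are 95% and cover counting error only: peaks that lie near each other are not independent, so the intervals are too narrow. The reads behind the peaks are unknown, the 2 parental alleles are not separated, and how many peaks are sites of p53 binding was not tested.

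Imprinted genes are expressed mainly from the copy inherited from 1 parent. They lie in clusters, each under an imprinting control region whose DNA methylation is set in the germ line, and many clusters carry a long non-coding RNA from the allele on which neighbouring protein-coding genes are silent. These marks are kept in the early embryo, from which embryonic stem cells are derived, while most other methylation is lost. Several members act on growth: Igf2 is a fetal growth factor, Igf2r removes it, and Cdkn1c inhibits cyclin-dependent kinases.

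Peak density differed widely between the domains. The Gnas window held 11 peaks or 78.6 per Mb (39.2 to 141), the H19-Igf2 and Kcnq1-Cdkn1c window 96 peaks or 73.8 per Mb (59.8 to 90.2), and the Dlk1-Dio3 window 65 peaks or 65.0 per Mb (50.2 to 82.8). The Peg3 window held 16 peaks or 64.0 per Mb (36.6 to 104), and the Igf2r-Airn window 25 peaks or 59.5 per Mb (38.5 to 87.9). These 5 neighbours in the order cannot be separated, since the ratio of the first to the last, 1.32, has an interval from 0.586 to 2.78. Below them came Peg10-Sgce with 45 peaks or 25 per Mb (18.2 to 33.5), and Igf2r-Airn was 2.38 times as dense (1.4 to 3.97). Snrpn-Ube3a-Ndn was last with 11 peaks in 3.3 Mb, or 3.33 per Mb (1.66 to 5.96), and Peg10-Sgce was 7.5 times as dense (3.82 to 16.1). The H19-Igf2 and Kcnq1-Cdkn1c window and the Snrpn window share chromosome 7, and the first was 22.2 times as dense as the second (11.8 to 45.9).

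Set against the rest of their own chromosomes, 2 domains were denser and 1 was sparser by more than counting error. H19-Igf2 and Kcnq1-Cdkn1c had 1.84 times (1.49 to 2.26) the 40.04 peaks per Mb of chromosome 7 outside the domains. Dlk1-Dio3 had 2.08 times (1.60 to 2.66) the 31.3 per Mb of chromosome 12, but among its peaks of a score of 100 or more the ratio was 1.47 (0.894 to 2.28) and at 200 or more 1.45 (0.691 to 2.68), so that this difference was then within counting error. Snrpn-Ube3a-Ndn had 0.0832 times (0.0415 to 0.149) the density of chromosome 7, which makes it 12 times sparser (6.71 to 24.1). The other 4 ratios had intervals that include 1: Gnas 1.88 (0.941 to 3.37), Peg3 1.60 (0.913 to 2.60), Igf2r-Airn 1.23 (0.796 to 1.82) and Peg10-Sgce 0.813 (0.592 to 1.09). The interval of Gnas lay above 1 when peaks up to 1 kb apart were merged (2.18, 1.09 to 3.91). It also did when the window was shortened by 10% at both ends (2.14, 1.03 to 3.94). At scores of 100 or more, however, the Gnas ratio was 0.776 (0.094 to 2.81), on 2 peaks. At 200 or more it was 0.775 (0.0196 to 4.32). The interval of Peg3 lay above 1 at scores of 200 or more (2.85, 1.04 to 6.21). The median ratio over the 7 domains was 1.60. Pooled, the domains had 32.8 peaks per Mb against 38.1 on the same 5 chromosomes, a ratio of 0.860 (0.760 to 0.970). That value rests on the Snrpn window, which is 40.2% of the length and holds 4.09% of the peaks. Without it the direction turned, with 52.5 per Mb and a ratio of 1.38 (1.22 to 1.56).

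**Figure D1:**
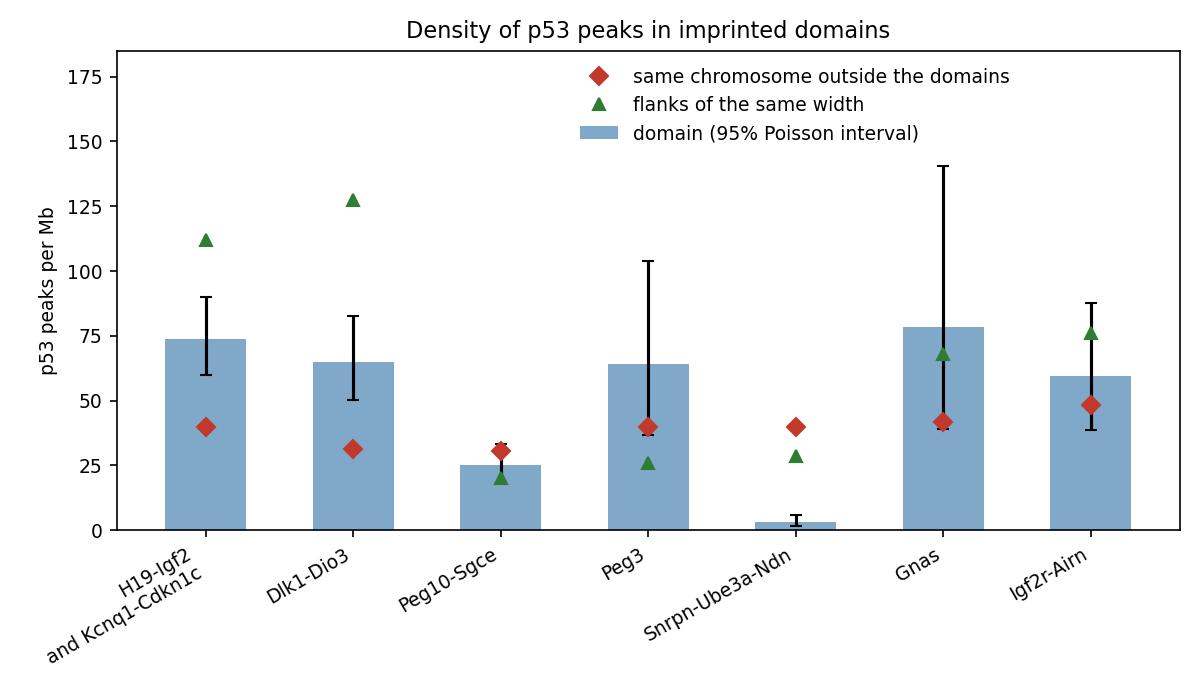
p53 peaks per Mb (y axis) in the 7 imprinted domains (x axis), as bars with 95% Poisson intervals, beside the density of the same chromosome outside the domains (diamonds) and of the flanking windows of the same width (triangles; Peg10-Sgce has 1 flank, the others 2). The Snrpn-Ube3a-Ndn bar, at 3.33 per Mb, lies under both references, and the H19-Igf2 and Kcnq1-Cdkn1c and Dlk1-Dio3 bars lie between theirs.

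The 2 domains above their chromosome sat in still denser surroundings. The 2 flanking windows of the same width as H19-Igf2 and Kcnq1-Cdkn1c held 148 and 143 peaks against 96 inside, so the domain had 0.660 times (0.518 to 0.834) the density of its flanks. Those of Dlk1-Dio3 held 91 and 164 peaks against 65, a ratio of 0.510 (0.382 to 0.672). Counted over peaks of all scores, both domains were thus above their chromosome and below their surroundings. Peg3 went the other way, with 9 and 4 peaks in its flanks against 16 and a ratio of 2.46 (1.11 to 5.56). Snrpn-Ube3a-Ndn had 31 peaks in the flank on the left (9.39 per Mb) and 159 on the right (48.2 per Mb), and 0.116 times (0.0568 to 0.212) the density of both together. For Gnas (1.16, 0.498 to 2.56), Igf2r-Airn (0.781, 0.471 to 1.26) and Peg10-Sgce, which has a flank on the right side alone (1.25, 0.789 to 1.99), a difference from the flanks was not detectable.

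No domain lay outside the range of its chromosome. When each chromosome was tiled with windows of the domain's width, 17 of 114 tiles on chromosome 7 (14.9%) held at least the 96 peaks of H19-Igf2 and Kcnq1-Cdkn1c, and 18 of 118 tiles on chromosome 12 (15.3%) held at least the 65 of Dlk1-Dio3. The tiles do not leave out the domains, so tiles that overlap these domains and share their peaks are among those counted. The shares were 20.2% for Gnas (258 of 1275), 26.0% for Peg3 (155 of 597), 33.8% for Igf2r-Airn (74 of 219) and 45.7% for Peg10-Sgce (37 of 81). For Snrpn-Ube3a-Ndn, 4 of 45 tiles (8.89%) held 11 peaks or fewer and 2 were empty, against a median of 124. The 2 empty tiles lay side by side, and a further tile, with 8 peaks, lay mostly over the Snrpn window itself. Few separate places are therefore behind this share.

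**Figure D2:**
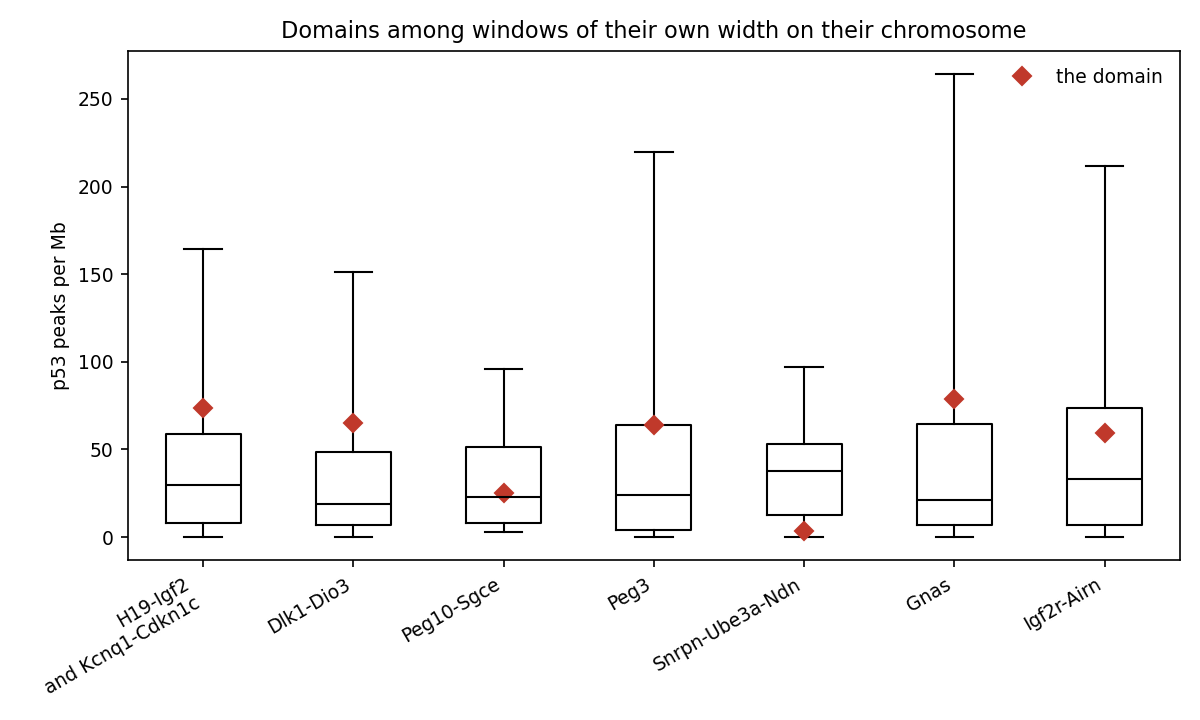
Density of p53 peaks (y axis, peaks per Mb) in windows of each domain's width tiled along its chromosome, as boxes (median and quartiles) with whiskers to the lowest and highest tile, and the domain itself as a diamond. All 7 diamonds fall inside the whiskers. For Snrpn-Ube3a-Ndn, 4 of 45 tiles lay at or below the domain, among them a tile mostly over the domain itself.

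In score, the member peaks were close to the list in the middle of the distribution. The score is the peak caller's value against input. It starts at 50 and piles up at exactly 3100, with some peaks above that value. Whether the order among scores of 3100 or more reflects strength was not tested, so these peaks are not ranked against each other. The median was 83.5 (75.7 to 92.7) over the 269 peaks and 87.4 (86.3 to 88.4) over 25779 peaks on the same chromosomes outside the domains. By domain the median ran from 71.4 in Gnas (57.1 to 120) over 77.2 in Igf2r-Airn, 81.2 in Dlk1-Dio3, 90.0 in Snrpn-Ube3a-Ndn, 92.0 in Peg10-Sgce and 92.2 in H19-Igf2 and Kcnq1-Cdkn1c to 120 in Peg3 (60.0 to 486), and the intervals of the lowest and highest overlap. Scores of 100 or more were held by 105 members (39.0%), against 43.1% of the peaks outside on these chromosomes.

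Strong peaks, with a score of 1000 or more, numbered 23 of the 269 members (8.55%, exact Clopper-Pearson interval 5.50% to 12.6%). The share on the same chromosomes outside the domains was 5.84%, inside that interval, and 5.77% over the whole list. By domain they were 10 of 96 in H19-Igf2 and Kcnq1-Cdkn1c (10.4%, 5.11% to 18.3%), 7 of 65 in Dlk1-Dio3 (10.8%, 4.44% to 20.9%), 3 of 16 in Peg3 (18.8%, 4.05% to 45.6%), 2 of 45 in Peg10-Sgce (4.44%, 0.543% to 15.1%) and 1 of 25 in Igf2r-Airn (4%, 0.101% to 20.4%). Outside the domains the share was 5.77% on chromosome 7, 6.14% on chromosome 12, 5.89% on chromosome 6 and 5.63% on chromosome 17, and each of the 5 intervals includes the share of its own chromosome. Snrpn-Ube3a-Ndn and Gnas had 0 of 11 each, which allows a share of up to 27.3% at a limit of 3 counts (the exact interval reaches 28.5%), and the share on chromosome 2 outside the domains was 5.85%. The density of strong peaks was examined after seeing the data. Per Mb, strong peaks were 3.33 times (1.58 to 6.20) as dense in H19-Igf2 and Kcnq1-Cdkn1c as on chromosome 7 outside the domains. They were 3.64 times (1.45 to 7.63) as dense in Dlk1-Dio3 as on chromosome 12. In Peg3 they were 5.20 times (1.07 to 15.3) as dense as on chromosome 7, there on 3 peaks. The ratio was 0.613 (0.0738 to 2.24) in Peg10-Sgce, 0.875 (0.0221 to 4.92) in Igf2r-Airn and 0 (0 to 10.9) in Gnas. Over all 7 domains it was 1.26 (0.795 to 1.90), an interval that includes 1. Against their flanks the ratios of strong peaks were 1.54 (0.604 to 3.80) for H19-Igf2 and Kcnq1-Cdkn1c and 1.27 (0.418 to 3.60) for Dlk1-Dio3, so a difference from the surroundings was not detectable, and the flanks of Peg3 held 0 strong peaks. With 0 in the Snrpn window the ratio was at most 0.487, the upper bound of its interval. Scores of 3100 or more were held by 9 members (3.35%, 1.54% to 6.26%), 6 of them in H19-Igf2 and Kcnq1-Cdkn1c, against 1.69% on the same chromosomes outside the domains.

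**Figure D3:**
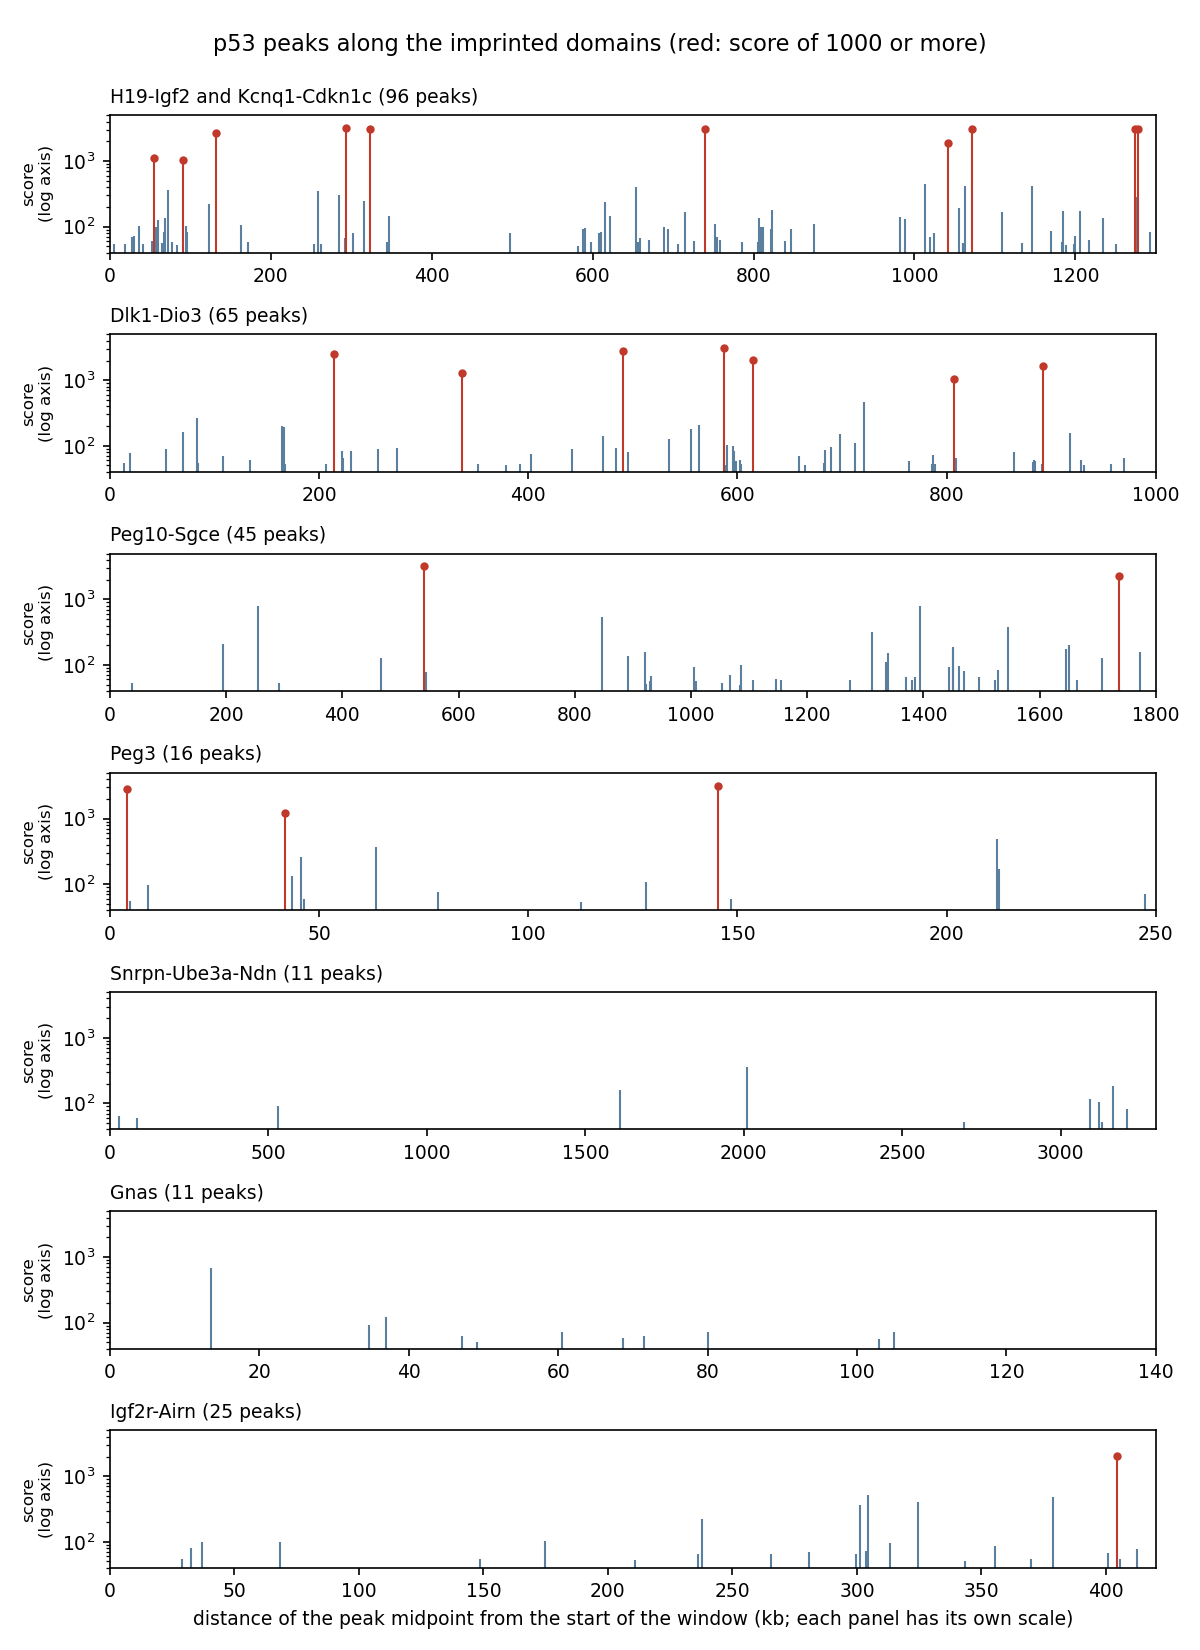
Score of each member peak (y axis, log scale) against the distance of its midpoint from the start of the window (x axis, kb, a scale of its own in each panel), with peaks of a score of 1000 or more in red. The 23 red peaks lie in 5 of the 7 panels, and the Snrpn-Ube3a-Ndn panel holds 11 low peaks, 5 of them in its last 300 kb.

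The H19-Igf2 and Kcnq1-Cdkn1c window joins a pair of neighbouring clusters. In the first, the non-coding RNA H19 is expressed from the maternal copy and Igf2 from the paternal one; in the second, the paternal RNA Kcnq1ot1 accompanies silencing of Cdkn1c, Phlda2 (a restraint on placental growth) and others on the same copy. A gene table on GRCm38.p6 gives the order H19, Igf2, Ins2, Th, Ascl2, Tspan32, Cd81, Tssc4, Kcnq1, Kcnq1ot1, Cdkn1c, Slc22a18, Phlda2. Because that build differs from mm9, peaks are given here by position and not by gene. A peak from 149793625 to 149794375 scored 3167.51, and a peak from 149822799 to 149824034 scored 3100. A further 4 peaks scored 3100, and the widest member of all 7 domains was among them, 2482 bases from 150238618 to 150241099. The others were at 150571258 to 150572859, and at 150773291 to 150775172 and 150777862 to 150779156, a pair with 2689 bases between them near the end of the window. The 4 remaining strong peaks scored 2704.59 (149631110 to 149631838), 1895.07 (150541527 to 150542271), 1106.90 (149554862 to 149555944) and 1051.56 (149591054 to 149591515).

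Peaks were spread through that window in every 100 kb step, from 1 to 19 a step. The most, 19, lay in the first step, from 149.5 to 149.6 Mb, and the median step held 8. The longest stretch without a peak was 149 kb, from 149847297 to 149996710. Neighbouring peaks were 6750 bases apart at the median, against 7309 on chromosome 7 outside the domains. Peaks covered 4.76% of the window and 2.31% of the chromosome outside.

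The Dlk1-Dio3 window holds the paternally expressed genes Dlk1 (a Notch-related membrane protein), Rtl1 (derived from a retrotransposon and needed in placental vessels) and, by preference, Dio3 (which inactivates thyroid hormone), and the maternal non-coding RNAs Meg3, Rian and Mirg, hosts of many small RNAs. Between Dlk1 and Dio3 the GRCm38.p6 table lists 103 genes, of which 61 are miRNA and 19 snoRNA genes. Each of the 10 steps of 100 kb held from 4 to 9 peaks, and the longest stretch without any was 61.2 kb. The 7 strong peaks were spread as well, with at least 26061 bases between neighbours. The highest, 3100, was also the widest at 2116 bases (111186560 to 111188675). The next scored 2804.49 in 542 bases (111089886 to 111090427) and 2481.85 (110813654 to 110814376). The other 4 scored 2042.94 (111214737 to 111215822), 1666.84 (111491776 to 111492653), 1269.93 (110936592 to 110937332) and 1045.68 (111406773 to 111407657). With these 7 included, 20 of the 65 peaks (30.8%) scored 100 or more, against 43.6% on chromosome 12 outside the domains.

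The Peg3 window was small and held strong and weak peaks close together. Peg3 encodes a zinc-finger protein expressed from the paternal copy, Usp29 a deubiquitinase gene beside it, and Zim1 a zinc-finger gene expressed from the maternal copy. A peak of 710 bases scored 3100 (6745064 to 6745773). The widest, of 905 bases, scored 2813.47 (6603600 to 6604504) and lay 4.05 kb inside the window's left edge, while the nearest peak outside that edge scored 74.81. The next in score had 1224.50 (6641468 to 6642249). The other 13 peaks ranged from 53.36 to 486.20.

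The Snrpn-Ube3a-Ndn window corresponds to the region whose human counterpart is altered in Prader-Willi and Angelman syndromes. Snrpn encodes a splicing protein, Ube3a a ubiquitin ligase silenced on the paternal copy in neurons, and Ndn, Magel2 and Mkrn3 are paternally expressed. From Ube3a to Mkrn3 the GRCm38.p6 table lists 251 genes, of which 206 are snoRNA genes and 7 protein-coding. Of its 33 steps of 100 kb, 25 held no peak. The 11 scores were 63.92, 60.53, 89.99, 158.93, 354.24, 52.41, 115.79, 105.98, 51.28, 180.89 and 82.51 in order along the chromosome. The highest lay from 68409871 to 68410391, the next from 69563784 to 69564387 and then from 68010486 to 68010779, and the widest peak measured 621 bases (66928980 to 66929600). The last 300 kb held 5 of the 11. Between 66929601 and 68010485, a stretch of 1081 kb, there was no peak, while the longest such stretch on chromosome 7 outside the domains was 7511 kb. Repeats and assembly gaps were not used here, and their part in this low count was not tested. Of the 11 peaks, 5 scored 100 or more (45.5%, 16.7% to 76.6%), against 42% on chromosome 7 outside the domains. An interval this wide cannot show that the shares are alike. The median width in the window was 521 bases (294 to 620) against 519.

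Peaks of the Peg10-Sgce window were sparse at its start and denser toward its end, with 9 in the first 900 kb and 36 in the rest. Peg10 is a retrotransposon-derived gene needed for the placenta, Sgce encodes epsilon-sarcoglycan, Calcr the calcitonin receptor, Ppp1r9a a neuronal scaffold of protein phosphatase 1, and Asb4 an ankyrin-repeat protein. The sparse part nevertheless held a member with a score above 3100. This peak had the value 3225.28 in 663 bases from 4140819 to 4141481. The peak before it was 73.5 kb away and scored 126.09, the peak after it 1.87 kb away and 77.53, and the longest empty stretch of the window, 303 kb, followed from 4143774 to 4446699. The other strong peak scored 2272.78 (5336375 to 5337006). The next in order scored 787.15 (3854640 to 3855255). The widest, at 1268 bases, scored 376.63 (5145463 to 5146730).

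Peaks of the Igf2r-Airn window gathered in its second part, with 19 of 25 in the last 210 kb. Airn is the paternal non-coding RNA that overlaps Igf2r. It accompanies silencing of Igf2r and of Slc22a2 and Slc22a3, the latter 2 encoding organic cation transporters. Its strong peak scored 2057.76 (12984192 to 12984987). It was followed by 516.50 (12883955 to 12884733), 476.17 (12958419 to 12959187) and 405.69, and the widest peak, 1337 bases, scored 358.56 (12880398 to 12881734). In the Gnas window, whose gene encodes the stimulatory G protein alpha subunit from several promoters of differing imprint, the first peak was both highest and widest (686.41, 1276 bases, 174062908 to 174064183). The next scored 119.58 (174086650 to 174087236) and 91.17 (174084426 to 174084961), and the remaining 8 scored from 51.03 to 72.80.

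Member peaks were near other peaks of like score in width. The median was 525 bases (500 to 553) against 512 (509 to 515) on the same chromosomes outside the domains, and by domain it ran from 468 in Peg10-Sgce (424 to 589) to 554 in H19-Igf2 and Kcnq1-Cdkn1c (510 to 604), with overlapping intervals. At scores of 50 to 100 it was 468 bases (450 to 483) in the domains and 448 (446 to 451) outside, a gap just beyond the first interval. At 100 to 1000 it was 649.5 (604 to 706) and 626 (623 to 630), and at 1000 or more 796 (729 to 1086) and 845.5 (828 to 865). Strong peaks in H19-Igf2 and Kcnq1-Cdkn1c had a median width of 1159.5 bases and those of Dlk1-Dio3 878, while the median was 782 in Peg3 (3 peaks) and 647.5 in Peg10-Sgce (2 peaks), and the single strong peak of Igf2r-Airn measured 796 bases. Width and score are both set by the peak caller.

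**Figure D4:**
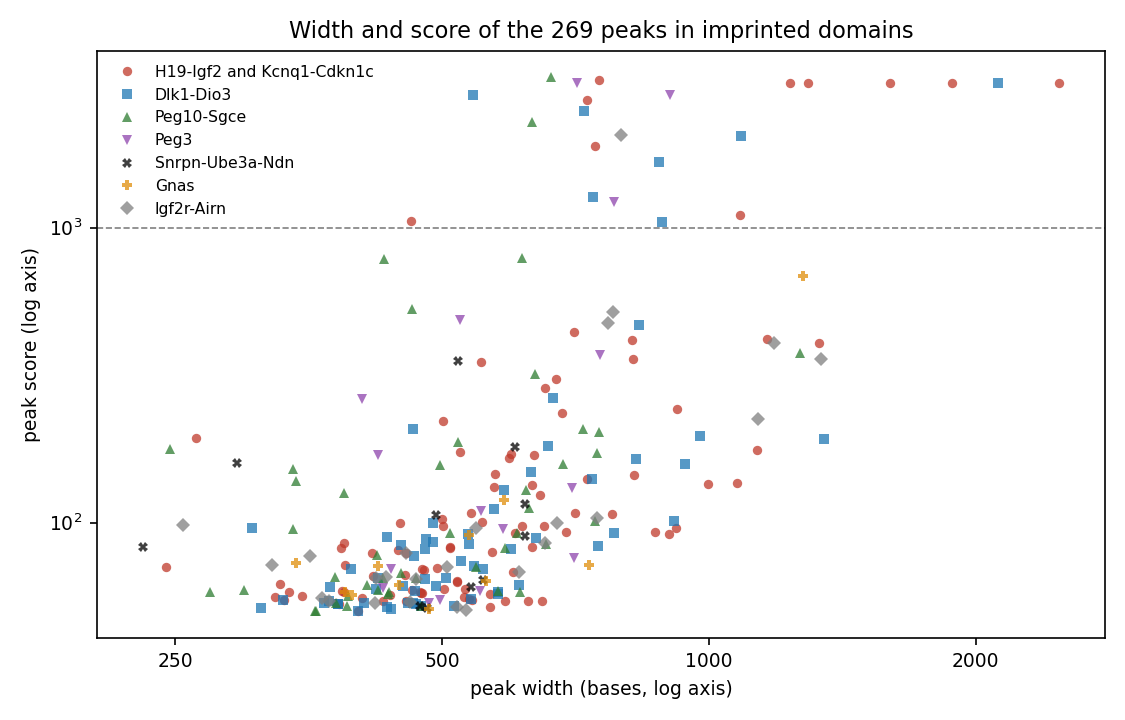
Width (x axis, bases, log scale) and score (y axis, log scale) of the 269 member peaks, marked by domain, with a dashed line at a score of 1000. The row of points at 3100 includes the 2 widest members with that score, at 2482 bases in H19-Igf2 and Kcnq1-Cdkn1c and 2116 bases in Dlk1-Dio3.

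Sequence under the peaks was not read, since no mm9 genome was used. Promoters of the member genes were therefore searched by gene symbol in RefSeq (GRCm38.p6, 250 bases before to 50 after each start) for the p53 response element, a repeated decamer that reads the same on both strands. At most 3 mismatches in 20 bases were allowed. Of 30 members with a promoter entry, 3 had a match, Snrpn, Igf2r and Kcnq1ot1, and 7.20% of 27025 genes had one, so the members' count is near the background. These sites are shown, 5′ to 3′ on the gene's strand with the 4 central bases of each decamer in capitals, because they are the members' matches within that limit. The Snrpn site has 2 mismatches and lies in the best of 4 start sites, with its first base at position -79 from the start. The other 2 have 3 mismatches each and begin at -180 (Igf2r) and -220 (Kcnq1ot1). In the element the capitals read C, A or T, A or T, and G. Both mismatches of the Snrpn site lie in its capitals, and the Igf2r and Kcnq1ot1 sites also have mismatches there. Whether a peak lies on any of the 3 sites was not tested.
Snrpn: aggAATGctcaagCATTcct
Igf2r: gagCAACcctgggGTTGtca
Kcnq1ot1: aggCTAGgtcgtaCAATcct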

How the data were processed

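The deposited file lists peaks of 1 p53 ChIP library against 1 input library, with chromosome, start, end, name and score and no header. Build mm9 and the tools MACS 1.4.1 and CASAVA 1.8.2 come from the submitters' processing notes; aligner, caller settings and duplicate handling were not given in the sources used here. The score was deposited by the authors as the caller wrote it, starts at 50, and is used only inside this list. Starts are printed counted from 1.

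Peaks were assigned to windows by midpoint. A chromosome's length is the distance from its first to its last peak, less the windows. Density ratios have exact conditional 95% intervals of 2 Poisson counts, shares exact Clopper-Pearson intervals, and medians intervals from order statistics. Tiles start at the first peak and do not leave out the domains. The functions were tested on simulated lists with set density ratios and peaks scattered evenly at random. Such lists could not check the intervals for peaks that gather near each other. Positions named are, for each domain, the 3 highest scores, all scores of 1000 or more where 10 or fewer, and the widest peak. Occupancy of genes and motifs in peaks were planned for an mm9 annotation and genome and were not run; the promoter search was added after seeing the data. All 37 member genes matched the gene table, used only for names, order and counts of genes by type. The members and lists were chosen with earlier results of these data known. Python 3.11.15, NumPy 2.4.6, pandas 2.3.3, SciPy 1.17.1 and Matplotlib 3.10.9 were used.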

Additional observations from a re-analysis of the deposited data

How the results depend on the processing

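The 8 settings chosen at the start were scores of 100 or more, scores of 200 or more, merging of peaks up to 1 kb apart, removal of peaks wider than 4 kb, membership by overlap, windows shortened or lengthened by 10% at both ends, and the median tile as reference; scores of 1000 or more and leaving out each window were added after seeing the data. Of 121 recomputed values, 92 stayed inside the reported interval. That count includes settings that could move little: membership by overlap changed no value, and no member was wider than 4 kb. The pooled ratio was above 1 with the median tile as reference (1.10), and the cause of this was not tested. It was also above 1 without Snrpn-Ube3a-Ndn (1.38, 1.22 to 1.56). At scores of 1000 or more it was 1.26 (0.795 to 1.90), an interval that includes 1. At 200 or more it was 0.794 (0.596 to 1.04), and that interval includes 1 too. The pooled ratio fell to 0.657 without H19-Igf2 and Kcnq1-Cdkn1c and 0.716 without Dlk1-Dio3. At scores of 100 or more the ratio was 1.47 (0.894 to 2.28) for Dlk1-Dio3 and 0.776 for Gnas, the median width 701, the median score 207 and the share of strong peaks 21.9%. At 200 or more the ratios were 1.45 (0.691 to 2.68) for Dlk1-Dio3, 2.85 (1.04 to 6.21) for Peg3, 0.0359 for Snrpn-Ube3a-Ndn and 0.775 for Gnas, the median width 753, the median score 524 and the share 42.6%; widths, scores and shares move by construction. Merging gave a median width of 556 and 2.18 (1.09 to 3.91) for Gnas. Shortened windows gave 0.0378 for Snrpn-Ube3a-Ndn and 2.14 (1.03 to 3.94) for Gnas. Against the median tile the ratios were 2.49 for H19-Igf2 and Kcnq1-Cdkn1c, 3.42 for Dlk1-Dio3, 1.10 for Peg10-Sgce, 2.67 for Peg3 and 3.67 for Gnas. At 1000 or more they were 3.33, 3.64 and 5.20 for H19-Igf2 and Kcnq1-Cdkn1c, Dlk1-Dio3 and Peg3, and 0 for Snrpn-Ube3a-Ndn and Gnas. H19-Igf2 and Kcnq1-Cdkn1c stayed above its chromosome (1.51 to 3.33), as did Dlk1-Dio3 (1.45 to 3.64), and Snrpn-Ube3a-Ndn below (0 to 0.0965), in all 9 alternatives run for each; the interval of Dlk1-Dio3 included 1 at scores of 100 or more and of 200 or more, and no interval is given against the median tile. No paired analysis was possible because there is a single library per group, so no replicate could be left out either. Unknown read depth limits statements on weak peaks.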
